A study of Mus musculus with 32 samples.

Results

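The 32 genes described here are interferon-stimulated genes, which cells switch on in answer to interferon. They were taken from a list of known members with the 2′-5′-oligoadenylate synthetase (Oas), guanylate-binding protein and interferon regulatory factor families left out. The rule uses gene names and no measured value, but the members were chosen with earlier results of these data known. All 32 were found among the 45706 genes of the deposited tables, and all 32 had enough reads to be tested. RNA was sequenced from marrow haematopoietic stem and progenitor cells (HSPCs), from which blood is renewed, sorted as Lin- cKit+ Sca1+. The sorted cells came from wild-type C57BL/6J donors that carried both CD45 alleles (CD45.1+/2+), so they never held the leukaemia fusion gene. In experienced mice (AF9_Experienced, AF9+/+), each C57BL/6J recipient (CD45.2), after lethal irradiation, had received 800000 of these wild-type marrow cells and 200000 CD45.1 marrow cells homozygous for inducible human MLL-AF9 and for rtTA, the doxycycline-dependent activator. In naive mice (AF9-/-) the 200000 partner cells were homozygous for rtTA and lacked hMLL-AF9. Leukaemia was induced with doxycycline from 6 to 8 weeks after transplantation for 5 weeks and left to regress without it for 4 weeks, and the schedule of naive mice is not described separately. Mice were then given lipopolysaccharide (LPS), a component of bacterial walls, or phosphate-buffered saline (PBS), and marrow was taken 24 h later. The 16 libraries were 4 experienced LPS, 4 naive LPS, 4 experienced PBS and 4 naive PBS. The labels call the 4 libraries of a group biological replicates. The sources used here state neither age, sex and LPS dose nor how many mice stand behind a replicate. A p-value therefore reflects only how these libraries spread, part of which may be technical. The labels name a droplet-based kit for library making, but RNA was column-extracted from the sorted cells and the tables were read as bulk data.

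Type I interferons bind the receptor IFNAR1/IFNAR2, whose kinases JAK1 and TYK2 phosphorylate STAT2. With IRF9, STAT2 is part of the complex ISGF3, which binds the interferon-stimulated response element (ISRE) in the promoters of such genes. Toll-like receptor 4, which senses LPS, can start interferon production through the adaptors TICAM2 and TICAM1. In the marrow, interferon is known to drive resting stem cells into division.

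ISRE letters were searched in RefSeq's promoter windows (GRCm38.p6), which run from 250 bases before to 50 bases after a gene's start. The table held 23 of the 32 genes, and Dhx58, Ifi27l2a, Mx1, Mx2, Parp14, Parp9, Rtp4, Usp18 and Zbp1 had no entry. The core GAAANNGAAA, on either strand, was found for 11 of the 23 genes (47.8%), against 3.99% of the 27025 gene symbols in the table. Those 11 were Bst2, Ddx58, Eif2ak2, Ifih1, Ifit1, Ifit3, Ifitm3, Isg15, Rsad2, Stat2 and Trim30a. The stretches below are shown for members that differ in their answer to LPS, with the ISRE core in capitals, each read 5′ to 3′ in the gene's direction.
Ifitm3, chr7:141010715-141010744, minus strand: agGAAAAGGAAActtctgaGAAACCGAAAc
Isg15, chr4:156200836-156200935, minus strand: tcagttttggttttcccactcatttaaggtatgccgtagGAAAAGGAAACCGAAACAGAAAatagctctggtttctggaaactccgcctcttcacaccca
Bst2, chr8:71537545-71537644, minus strand: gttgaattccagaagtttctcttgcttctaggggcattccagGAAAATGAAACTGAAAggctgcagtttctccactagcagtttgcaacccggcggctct
Ifit1, chr19:34640749-34640848, plus strand: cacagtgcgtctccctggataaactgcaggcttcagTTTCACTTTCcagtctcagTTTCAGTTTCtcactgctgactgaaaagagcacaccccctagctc
Ifit3, chr19:34583345-34583444, plus strand: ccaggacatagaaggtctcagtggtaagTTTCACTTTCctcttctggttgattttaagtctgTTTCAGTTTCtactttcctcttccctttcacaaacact
Ifit2, chr19:34550594-34550693, plus strand: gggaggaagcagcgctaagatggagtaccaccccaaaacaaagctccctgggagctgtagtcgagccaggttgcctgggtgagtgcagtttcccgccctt
The pair of cores of Ifitm3 lies just after the annotated start, so 30 bases from the start are printed. Isg15 carries 3 cores that overlap each other and Bst2 carries 2 that overlap. Ifit1 and Ifit3 each carry 2 on the opposite strand. Ifit2, next to Ifit3 on chromosome 19, has no such letters in the window, which says nothing of sites outside it. The longer form with CT after the core (GAAANNGAAACT) was found for 6 of the 23 genes (26.1%), against 0.303% of symbols. The gamma-activated sequence TTCNNNGAA was found for 8 of 23 (34.8%) against 9.55%, and the NF-kappaB letters GGGANNTTCC for 3 of 23 (13%) against 1.63%. A match is a run of letters and does not show that a factor binds there.

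Libraries held 7.72 to 22.3 M estimated counts. The 32 genes each summed to between 549 and 70825 counts over the 16 libraries. Experienced LPS replicate 4 was the shallowest library, at 7.72 M counts, with the fewest genes detected (14859) and 7.30% of its counts mitochondrial. Experienced PBS replicate 4 had 5.94%, and the other 14 libraries had 1.91 to 4.26%. Of the sort markers, Kit averaged 142 TPM in experienced LPS, 161 TPM in naive LPS, 191 TPM in experienced PBS and 203 TPM in naive PBS libraries. Ly6a, which encodes Sca1 and is itself induced by interferon, averaged 173 and 185 TPM in experienced and naive LPS libraries against 53.7 and 60.4 TPM in experienced and naive PBS libraries. Of the 9 HSPC markers, Cd34, Flt3, Procr, Hlf and Mecom fell after LPS in both kinds of mice and Ly6a rose. Kit, Slamf1 and Cd48 were not called in either. The 9 markers, Ly6a among them, summed to 613 to 713 TPM in experienced LPS and 567 to 781 TPM in naive LPS libraries. In PBS libraries they summed to 792 to 1156 TPM in experienced and 929 to 1137 TPM in naive mice. The markers of T and NK cells summed to 92.5 to 192 TPM in experienced LPS and 111 to 169 TPM in naive LPS libraries, against 134 to 152 TPM in experienced PBS and 159.7 to 178 TPM in naive PBS libraries. Nearly all of it was Nkg7, a gene of cytotoxic granules, while Cd3e and Cd3d, which define T cells, reached at most 0.51 and 0.3 TPM. The B cell markers summed to 11.5 to 17.6 TPM in experienced LPS and 13.3 to 16.6 TPM in naive LPS libraries, against 15.4 to 24.3 TPM in experienced PBS and 20.6 to 23.4 TPM in naive PBS libraries, mostly from Cd79b at 11.3 to 22.7 TPM, while Ms4a1 reached at most 0.26 TPM. Whether a shift in the cells that pass the gate has a part in the LPS changes was not tested. In bulk RNA, fewer cells of a type and less RNA per cell cannot be told apart.

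After LPS, 5 of the 32 genes were called higher in experienced mice and 18 in naive mice. In experienced mice 5 were higher after LPS than after PBS at an adjusted p under 0.05 and 0 were lower, while 4.52% of the 15186 genes tested were higher and 8.26% lower. In naive mice 18 were higher and 0 lower, against 9.81% of all genes higher and 11.9% lower. These calls came from the quasi-likelihood test of edgeR, with p-values adjusted by Benjamini and Hochberg's method over all genes. Ifitm3, Bst2, Isg15, Usp18 and Zbp1 were called in both kinds of mice. Cmpk2, Dhx58, Eif2ak2, Ifi44, Ifih1, Ifit1, Isg20, Parp14, Parp9, Rtp4, Stat2, Trim25 and Xaf1 were called in naive mice alone, and a direct test of the difference, given further on, was passed by none of them. The other 14 members passed in neither. The median log2 change over the members was 0.19 in experienced mice, or 1.14-fold, against -0.02 over all genes, with 26 of 32 estimates above 0. In naive mice it was 0.71, or 1.64-fold, against 0.02 over all genes, with 31 of 32 above 0. Every LPS library exceeded every PBS library for 7 members in experienced mice, where 6.45% of all genes did so, and for 18 members in naive mice, where 12.5% did. The count in experienced mice stayed at 5 or 6 whichever library was left out, but the median there was 0.075 with 14 estimates below 0 without experienced LPS replicate 4. In naive mice the count was 11 without naive PBS replicate 2 and 12 without naive LPS replicate 1. The number of all genes called higher moved as well. In naive mice it was 768 of 15395 and 1179 of 15422 in these 2 fits, against 1490 of 15186 with all libraries. In experienced mice it ran from 302 of 15535 without experienced PBS replicate 1 to 1456 of 15558 without experienced LPS replicate 4.

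**Figure D1:**
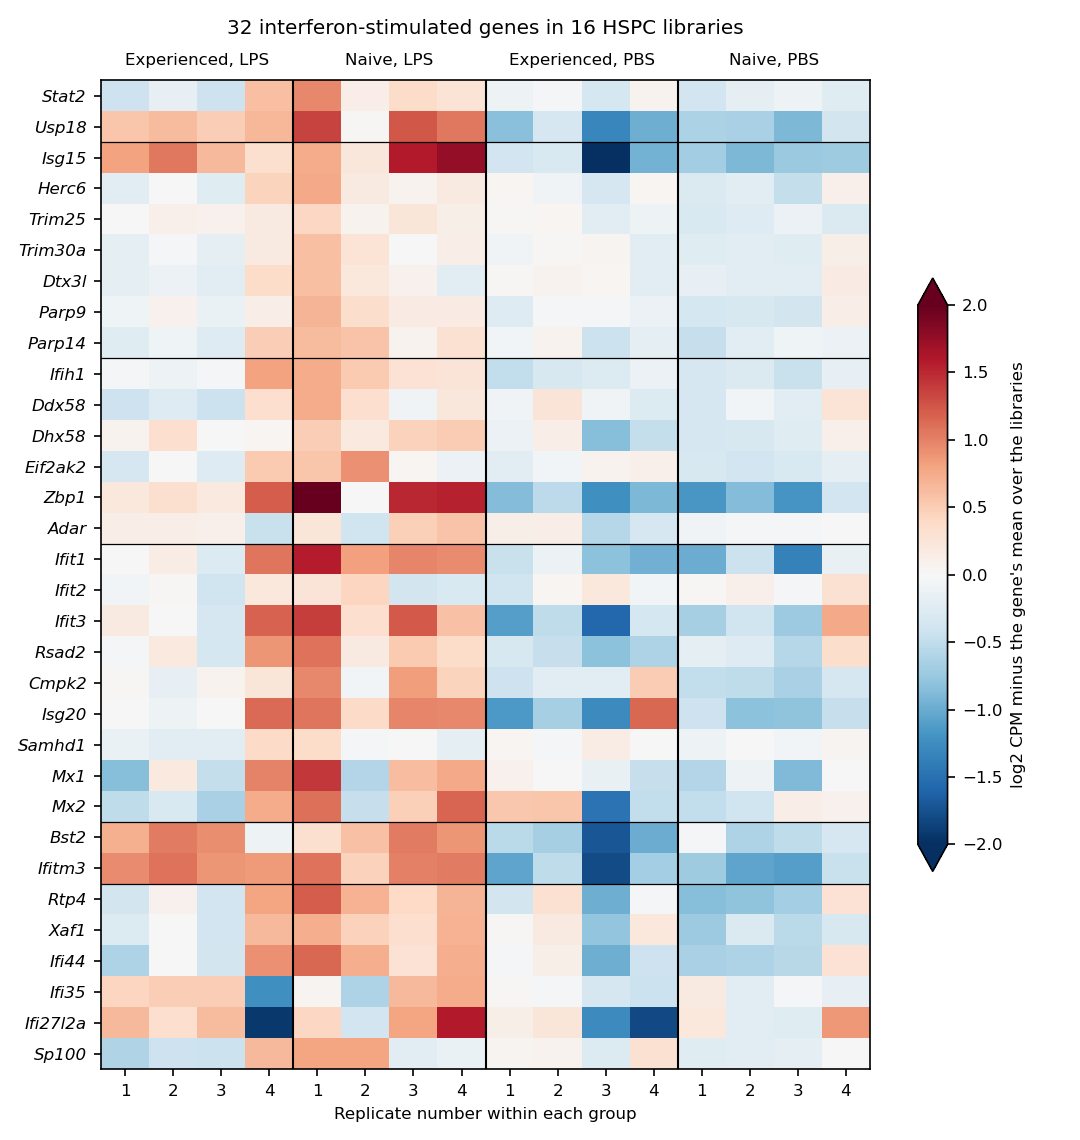
Each row is 1 of the 32 genes, grouped by role, and each column 1 library; colour gives log2 CPM minus the gene's mean over the 16 libraries. The naive LPS columns hold the highest group mean for 30 of 32 genes, and experienced LPS replicate 4 differs in colour from replicates 1, 2 and 3 of its group.

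Values below are TMM-scaled CPM (counts scaled to library size), in the order of replicates 1 to 4, and levels compared between genes are in TPM, which are also scaled for transcript length. The list spans a wide range of levels. Averaged over the 16 libraries, Ifitm3 had 629 TPM, Sp100 99.3 TPM and Bst2 79.7 TPM at the top, and Mx2 had 3.83 TPM, Mx1 2.44 TPM and Ifit3 1.59 TPM at the bottom. Of the 32, 26 averaged at least 10 TPM, and Ifit1, Ifit3, Rsad2, Mx1, Mx2 and Herc6 averaged less. By role, the median log2 change after LPS was 1.75 in experienced and 1.41 in naive mice for the 2 membrane effectors, and 0.73 and 1.18 for the 2 signalling genes. It was 0.11 in experienced and 0.53 in naive mice for the 7 modifiers, 0.27 and 0.66 for the 6 sensors, 0.23 and 1.10 for the 9 effectors against viral RNA and replication, and 0.33 and 0.79 for the other 6.

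The membrane effectors Ifitm3 and Bst2 rose in both kinds of mice. Ifitm3 encodes an endosomal membrane protein that blocks viral fusion and lies on chromosome 7 (141009586 to 141010770, GRCm38). Ifitm3 had 445, 492, 427 and 418 CPM in the experienced LPS libraries and 491, 317, 465 and 477 CPM in the naive LPS libraries, against 111, 163, 66.6 and 144 CPM after PBS in experienced mice and 141, 111, 108 and 170.2 CPM after PBS in naive mice. All 8 LPS libraries lay above all 8 PBS libraries, and naive LPS replicate 2 was the lowest of the LPS libraries. After LPS the log2 change was 1.88 (SE 0.24, adjusted p = 0.00012) in experienced mice and 1.72 (SE 0.24, adjusted p = 0.000143) in naive mice, which are 3.68-fold and 3.3-fold. Bst2 encodes tetherin, which holds budding viruses at the cell surface. Bst2 had 60.1, 74.9, 69.7 and 34.1 CPM in the experienced LPS libraries and 45.7, 54.9, 75.5 and 67.2 CPM in the naive LPS libraries, against 25.2, 23.1, 11.1 and 18.2 CPM after PBS in experienced mice and 35.7, 23.8, 25.6 and 28.9 CPM after PBS in naive mice. Within each kind of mouse the LPS and PBS libraries did not overlap, but experienced LPS replicate 4 lay below naive PBS replicate 1. The fitted log2 change was 1.62 (SE 0.27, adjusted p = 0.000944) in experienced mice and 1.09 (SE 0.26, adjusted p = 0.00783) in naive mice. Bst2 also marks plasmacytoid dendritic cells, of whose 5 other markers Siglech, Ccr9, Klk1, Cox6a2 and Ly6d reached at most 1.28, 1.2, 0.19, 7.49 and 3.74 TPM. Ly6d fell after LPS in both kinds of mice and Ccr9 in naive mice. Ifitm3 and Bst2 had the estimates nearest 0 between experienced and naive LPS libraries, with log2 differences of 0.03 (SE 0.23) for Ifitm3 and -0.03 (SE 0.26) for Bst2.

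**Figure D2:**
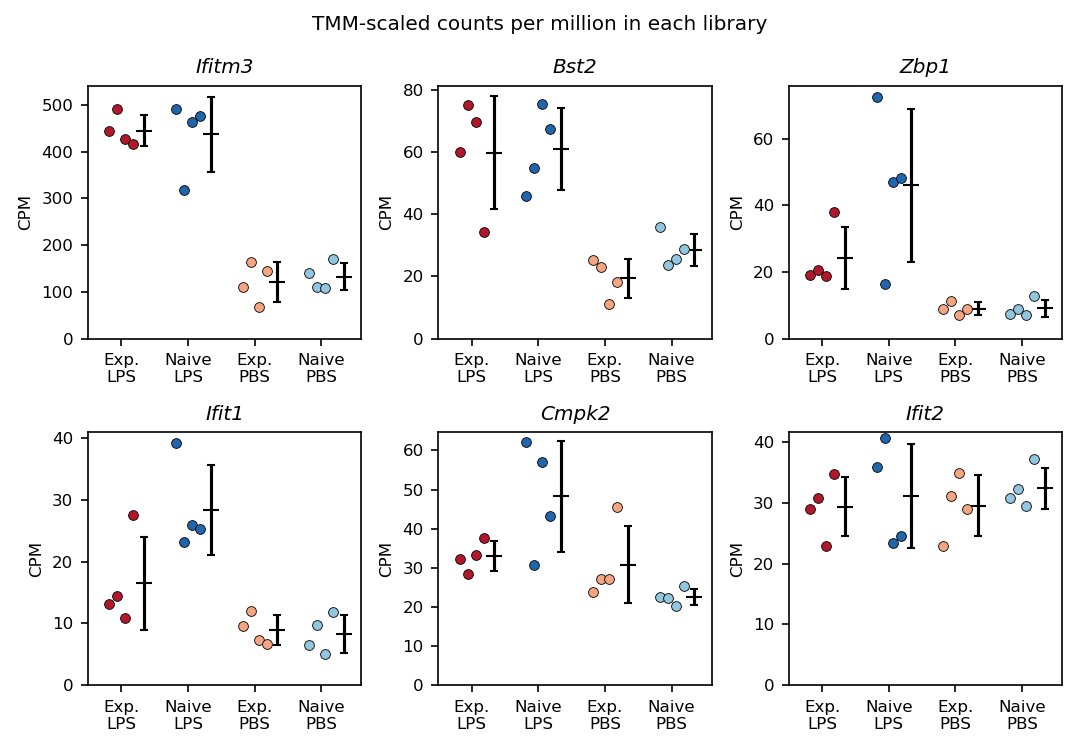
TMM-scaled CPM on a linear axis from 0 for 6 genes, with 1 point per library, the 4 replicates of a group from left to right, and the group mean with its SD (n = 4) beside them. Ifitm3 and Bst2 are high in both LPS groups, Zbp1, Ifit1 and Cmpk2 are lower in most experienced than in most naive LPS libraries, and the 4 groups of Ifit2 overlap.

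Of the pair of signalling genes, Usp18 passed the test in both kinds of mice and Stat2 in naive mice. USP18 removes ISG15 from proteins and dampens the type I interferon receptor. Usp18 had 20.5, 21.7, 19.7 and 22.1 CPM in the experienced LPS libraries and 35.8, 14.2, 33.2 and 29.2 CPM in the naive LPS libraries, against 7.74, 11.1, 5.6 and 7.07 CPM after PBS in experienced mice and 8.93, 8.84, 7.44 and 10.8 CPM after PBS in naive mice. The 4 experienced LPS libraries were close together, from 19.7 to 22.1 CPM, while naive LPS replicate 2 lay below all of them and the other 3 naive LPS libraries above. Its LPS change on the log2 scale was 1.41 (SE 0.26, adjusted p = 0.00205) in experienced mice and 1.65 (SE 0.26, adjusted p = 0.000401) in naive mice. Stat2, a subunit of ISGF3, averaged 54.8 ± 20.5 CPM in experienced LPS and 77.6 ± 21.3 CPM in naive LPS libraries, against 52.7 ± 6.4 and 47.8 ± 3.86 CPM in experienced and naive PBS libraries (SD, n = 4 each). On the log2 scale it changed by 0.05 (SE 0.22, adjusted p = 0.904) in experienced mice and 0.70 (SE 0.22, adjusted p = 0.0297) in naive mice. The naive call was lost without naive LPS replicate 1 (adjusted p = 0.109) and without naive PBS replicate 1, 2 or 4.

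Among the 7 genes of ISG15, ubiquitin and ADP-ribose modification, 1, Isg15, was called higher in experienced mice, where 4.52% of all genes were. In naive mice 4 were called (Isg15, Trim25, Parp9, Parp14), where 9.81% of all genes were higher. Isg15 encodes the ubiquitin-like protein that is conjugated to others during an interferon response. Isg15 had 16.2, 19.3, 14.7 and 11.5 CPM in the experienced LPS libraries and 15.5, 10.8, 28 and 31.7 CPM in the naive LPS libraries, against 7.06, 7.5, 1.6 and 4.74 CPM after PBS in experienced mice and 5.66, 4.91, 5.47 and 5.63 CPM after PBS in naive mice. Experienced PBS replicate 3 was the lowest library, and the LPS and PBS libraries of each kind of mouse did not overlap. edgeR gave a log2 change of 1.55 (SE 0.39, adjusted p = 0.0149) in experienced mice and 1.99 (SE 0.39, adjusted p = 0.00224) in naive mice. TRIM25 is a ubiquitin ligase that acts on the RNA sensor RIG-I. Trim25 had 154, 163, 162 and 173 CPM in the experienced LPS libraries and 204, 160.2, 179.6 and 166 CPM in the naive LPS libraries, against 156, 158, 132 and 142 CPM after PBS in experienced mice and 123, 128, 140.0 and 125 CPM after PBS in naive mice. The naive LPS libraries all exceeded the naive PBS libraries, while the experienced groups overlapped. After LPS the log2 change was 0.15 (SE 0.11, adjusted p = 0.415) in experienced mice and 0.46 (SE 0.11, adjusted p = 0.00844) in naive mice, a 1.38-fold rise.

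PARP9 is an ADP-ribosyltransferase that works as a pair with the ubiquitin ligase DTX3L. Parp9 had 61.7, 69.8, 59.9 and 71.8 CPM in the experienced LPS libraries and 105, 84.2, 73.8 and 73.6 CPM in the naive LPS libraries, against 54.8, 64.1, 63.6 and 60.7 CPM after PBS in experienced mice and 51.2, 52.4, 50.8 and 72.1 CPM after PBS in naive mice. It was the only member whose 4 experienced LPS libraries all lay below the 4 naive LPS libraries, which 1.01% of all genes did, and its highest experienced library (71.8 CPM) nearly touched its lowest naive one (73.6 CPM). The log2 change after LPS was 0.11 (SE 0.14, adjusted p = 0.664) in experienced mice and 0.57 (SE 0.14, adjusted p = 0.0112) in naive mice. Dtx3l lies beside Parp9 on the other strand of chromosome 16, and the annotations overlap between 35938470 and 35939151, so reads there cannot be assigned without knowing the strand setting. Dtx3l had a log2 change of 0.00 (SE 0.17, adjusted p = 0.992) in experienced mice and 0.30 (SE 0.17, adjusted p = 0.229) in naive mice. Parp14, a related transferase, had 0.15 (SE 0.18, adjusted p = 0.638) in experienced mice and 0.62 (SE 0.18, adjusted p = 0.0215) in naive mice, a call lost without naive LPS replicate 1 or naive PBS replicate 1 or 2 (adjusted p up to 0.0626). Herc6, the ligase that attaches ISG15 in mice, had 0.10 (SE 0.19, adjusted p = 0.784) in experienced mice and 0.53 (SE 0.19, adjusted p = 0.0548) in naive mice. Trim30a, known to dampen Toll-like receptor signalling in mice, had -0.00 (SE 0.14, adjusted p = 0.991) in experienced mice and 0.41 (SE 0.14, adjusted p = 0.050) in naive mice. In naive mice both were just short of the threshold. Without experienced LPS replicate 4 both passed it (adjusted p = 0.0227 for Herc6 and 0.0257 for Trim30a), as they did without naive LPS replicate 3 or naive PBS replicate 4. Each of the 7 genes had a lower estimate in experienced than in naive LPS libraries.

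Of the 6 nucleic acid sensors and editors, 1, Zbp1, was called higher in experienced mice, where 4.52% of all genes were. In naive mice 4 were called (Zbp1, Ifih1, Dhx58, Eif2ak2), where 9.81% of all genes were higher. ZBP1 binds Z-form nucleic acid and can trigger cell death. Zbp1 had 19, 20.6, 18.9 and 38.1 CPM in the experienced LPS libraries and 72.5, 16.3, 46.9 and 48.1 CPM in the naive LPS libraries, against 8.94, 11.4, 6.94 and 8.74 CPM after PBS in experienced mice and 7.29, 8.98, 7.2 and 12.6 CPM after PBS in naive mice. The naive LPS libraries spread widely, with replicate 1 highest and replicate 2 below every experienced LPS library, and experienced LPS replicate 4 stood above the other 3. Zbp1 had a log2 change of 1.41 (SE 0.36, adjusted p = 0.016) or 2.66-fold in experienced mice. In naive mice it was 2.35 (SE 0.36, adjusted p = 0.000361) or 5.11-fold, the highest estimate of the 32 there. Eif2ak2 encodes PKR, the kinase that halts translation when it binds double-stranded RNA. Eif2ak2 had 70.9, 88.4, 74.8 and 128 CPM in the experienced LPS libraries and 131, 169, 91.3 and 82.4 CPM in the naive LPS libraries, against 76.1, 85.5, 93.3 and 95.9 CPM after PBS in experienced mice and 71, 68.6, 71.9 and 78.7 CPM after PBS in naive mice. In naive mice the LPS and PBS libraries did not overlap, with LPS replicate 4 closest to the PBS range, and in experienced mice they overlapped. The fitted log2 change was 0.04 (SE 0.21, adjusted p = 0.919) in experienced mice and 0.70 (SE 0.21, adjusted p = 0.0262) in naive mice, and the naive call was lost without naive LPS replicate 1 or 2 or naive PBS replicate 1, 2 or 3 (adjusted p up to 0.0819).

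The cytosolic RNA helicases differed in their calls. Ifih1 (MDA5) had a log2 change of 0.51 (SE 0.18, adjusted p = 0.0818) in experienced and 0.77 (SE 0.18, adjusted p = 0.00788) in naive mice, and its experienced LPS libraries all exceeded the PBS ones although the test was not passed. Dhx58 (LGP2), which regulates the other helicases, had 0.40 (SE 0.18, adjusted p = 0.165) in experienced mice and 0.62 (SE 0.18, adjusted p = 0.0252) in naive mice, a call lost without naive LPS replicate 1 or 3 or naive PBS replicate 1, 2 or 3 (adjusted p up to 0.0754). Ddx58 (RIG-I) had -0.13 (SE 0.20, adjusted p = 0.723) in experienced mice and 0.40 (SE 0.20, adjusted p = 0.168) in naive mice. Adar, which edits adenosine to inosine in double-stranded RNA, had 0.14 (SE 0.20, adjusted p = 0.713) in experienced mice and 0.30 (SE 0.20, adjusted p = 0.298) in naive mice. It averaged 50.5 ± 3.24 TPM in experienced LPS and 59.3 ± 14.1 TPM in naive LPS libraries, against 48.3 ± 13.4 TPM in experienced PBS and 48.8 ± 7.48 TPM in naive PBS libraries (SD, n = 4 each).

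Of the 9 effectors against viral RNA and replication, 0 were called higher in experienced mice, where 4.52% of all genes were. In naive mice 3 were called (Ifit1, Cmpk2, Isg20), where 9.81% of all genes were higher. Ifit1 encodes a protein that binds foreign RNA caps. Ifit1 had 13.2, 14.5, 10.8 and 27.5 CPM in the experienced LPS libraries and 39.2, 23.2, 25.9 and 25.3 CPM in the naive LPS libraries, against 9.62, 12.1, 7.34 and 6.69 CPM after PBS in experienced mice and 6.54, 9.68, 5.04 and 11.9 CPM after PBS in naive mice. Naive LPS libraries all exceeded the PBS libraries, and of the experienced LPS libraries only replicate 4 reached the naive LPS range. Its LPS change on the log2 scale was 0.87 (SE 0.32, adjusted p = 0.0833) in experienced mice and 1.78 (SE 0.32, adjusted p = 0.00127) in naive mice. Ifit3, a partner of IFIT1 in the same complex, was the lowest-expressed member. Ifit3 had 2.08, 1.81, 1.41 and 4.26 CPM in the experienced LPS libraries and 4.92, 2.32, 4.42 and 2.81 CPM in the naive LPS libraries, against 0.784, 1.25, 0.533 and 1.39 CPM after PBS in experienced mice and 1.11, 1.36, 1.06 and 3.17 CPM after PBS in naive mice. Naive PBS replicate 4 stood above the other PBS libraries and overlapped the naive LPS group. On the log2 scale it changed by 1.25 (SE 0.48, adjusted p = 0.0992) in experienced mice and 1.13 (SE 0.46, adjusted p = 0.0893) in naive mice. In experienced mice its LPS and PBS libraries did not overlap, and in naive mice it passed without naive PBS replicate 4 (adjusted p = 0.0303). Ifit2, the neighbour of Ifit3, encodes another RNA-binding protein of the family and had log2 changes of -0.01 (SE 0.19, adjusted p = 0.982) in experienced mice and -0.06 (SE 0.19, adjusted p = 0.856) in naive mice. Summed counts were fractional for Ifit3 (548.8) and its relative Ifit3b (141.2), and for Ifit1 (3838.8) and its relative Ifit1bl2 (73.2). Fractions arise where shared reads are split between genes, so the values of Ifit1 and Ifit3 are uncertain.

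CMPK2 is a mitochondrial nucleotide kinase whose gene neighbours Rsad2 on chromosome 12. Cmpk2 had 32.3, 28.4, 33.4 and 37.7 CPM in the experienced LPS libraries and 62.2, 30.6, 57 and 43.1 CPM in the naive LPS libraries, against 23.7, 27, 27.1 and 45.5 CPM after PBS in experienced mice and 22.5, 22.2, 20.2 and 25.3 CPM after PBS in naive mice. Experienced PBS replicate 4 was the highest PBS library by far, and naive LPS replicate 2 lay within the experienced LPS range. edgeR gave a log2 change of 0.10 (SE 0.22, adjusted p = 0.815) in experienced mice and 1.10 (SE 0.22, adjusted p = 0.0027) in naive mice. Rsad2 encodes viperin, which makes a chain-terminating nucleotide from CTP. Rsad2 had 17.1, 19.9, 13.5 and 32.2 CPM in the experienced LPS libraries and 37.1, 19.8, 24.9 and 22.5 CPM in the naive LPS libraries, against 13.9, 12.6, 9.8 and 11.3 CPM after PBS in experienced mice and 15.3, 14.4, 11.6 and 22 CPM after PBS in naive mice. LPS and PBS libraries overlapped in both kinds of mice. After LPS the log2 change was 0.79 (SE 0.27, adjusted p = 0.0659) in experienced mice and 0.72 (SE 0.27, adjusted p = 0.063) in naive mice. In experienced mice it passed without experienced LPS replicate 3 (adjusted p = 0.0444) or naive LPS replicate 2 (adjusted p = 0.0486), and by DESeq2 (adjusted p = 0.0287). In naive mice it passed without naive PBS replicate 4 (adjusted p = 0.0383), naive LPS replicate 2 or experienced LPS replicate 4, and by DESeq2 (adjusted p = 0.0409).

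The exonuclease gene Isg20 was 2.82-fold higher after LPS in naive mice (adjusted p = 0.0236), a call lost without naive LPS replicate 1 or naive PBS replicate 2 or 3 (adjusted p up to 0.0668). In experienced mice its log2 change was 0.48 (SE 0.44, adjusted p = 0.525), but 1 PBS library, replicate 4, held 47.4 CPM where the other 3 held 8.80 to 13.4 CPM. Without that library the log2 change was 1.38 with an adjusted p of 0.00670. Experienced LPS replicate 4 also stood high, at 47.2 CPM against 19.9 to 21.6 CPM in the rest of its group. Over 28 settings the log2 change in experienced mice ran from 0.12 to 1.38. It was called in 2 of them, both of which left out experienced PBS replicate 4. The GTPases Mx1 and Mx2 were scarce; Mx1 is known to be broken by a deletion in most laboratory strains, and GENCODE lists Mx2 as a polymorphic pseudogene. Mx1 had 2.44, 5.2, 3.21 and 9.07 CPM in the experienced LPS libraries and 12.3, 2.97, 7.01 and 7.72 CPM in the naive LPS libraries, against 4.81, 4.48, 4.07 and 3.25 CPM after PBS in experienced mice and 2.96, 4.21, 2.4 and 4.55 CPM after PBS in naive mice. Mx2 had 3.51, 4.07, 3.16 and 8.52 CPM in the experienced LPS libraries and 10.9, 3.62, 7.06 and 11.5 CPM in the naive LPS libraries, against 7.37, 7.44, 1.73 and 3.53 CPM after PBS in experienced mice and 3.54, 3.79, 5.52 and 5.33 CPM after PBS in naive mice. For both genes naive LPS replicate 2 lay within the range of the naive PBS libraries and the other 3 naive LPS libraries above it. Mx1 had a log2 change of 0.23 (SE 0.42, adjusted p = 0.774) in experienced mice and 1.10 (SE 0.42, adjusted p = 0.0707) in naive mice. In naive mice Mx1 passed without naive LPS replicate 2 (adjusted p = 0.0245) or experienced LPS replicate 4 (adjusted p = 0.0311). For Mx2 the change was -0.09 (SE 0.46, adjusted p = 0.916) in experienced mice and 0.87 (SE 0.45, adjusted p = 0.179) in naive mice. Samhd1, which breaks down nucleotides, had -0.06 (SE 0.15) in experienced mice, not past the threshold, and 0.08 (SE 0.15, adjusted p = 0.725) in naive mice.

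Of the remaining 6 genes, 0 were called higher in experienced mice, where 4.52% of all genes were. Rtp4, Xaf1 and Ifi44 were called in naive mice, where 9.81% of all genes were higher. XAF1 opposes an inhibitor of cell death. Xaf1 had 23.1, 28.1, 21.4 and 44 CPM in the experienced LPS libraries and 46.5, 38.6, 35.6 and 45.4 CPM in the naive LPS libraries, against 28.4, 31.9, 16.2 and 32.5 CPM after PBS in experienced mice and 16.9, 23, 19.2 and 22.5 CPM after PBS in naive mice. In naive mice the LPS and PBS libraries did not overlap, and in experienced mice they did. The fitted log2 change was 0.09 (SE 0.24, adjusted p = 0.841) in experienced mice and 1.03 (SE 0.24, adjusted p = 0.00644) in naive mice. Rtp4, a chaperone of membrane receptors, had 0.30 (SE 0.32, adjusted p = 0.60) in experienced mice and 1.21 (SE 0.32, adjusted p = 0.0149) in naive mice, lost without naive PBS replicate 2 (adjusted p = 0.0515). Ifi44 had 0.37 (SE 0.32, adjusted p = 0.51) in experienced mice and 1.09 (SE 0.32, adjusted p = 0.025) in naive mice, lost without naive LPS replicate 1 or naive PBS replicate 1, 2 or 3 (adjusted p up to 0.0754).

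Sp100 encodes a protein of nuclear bodies. Sp100 had 86.2, 98.3, 96.8 and 206 CPM in the experienced LPS libraries and 226, 226, 113 and 119 CPM in the naive LPS libraries, against 135, 137, 108 and 161 CPM after PBS in experienced mice and 110.3, 113, 115 and 130.5 CPM after PBS in naive mice. Naive LPS replicates 1 and 2 and experienced LPS replicate 4 were high, and the other LPS libraries lay within or below the PBS range. Its LPS change on the log2 scale was -0.16 (SE 0.27, adjusted p = 0.758) in experienced mice and 0.54 (SE 0.27, adjusted p = 0.164) in naive mice. Ifi35 had 0.38 (SE 0.32, adjusted p = 0.471) in experienced mice and 0.36 (SE 0.31, adjusted p = 0.452) in naive mice. Ifi27l2a, with the widest SE of the list, had 0.66 (SE 0.54, adjusted p = 0.469) in experienced mice and 0.55 (SE 0.54, adjusted p = 0.495) in naive mice.

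**Figure D3:**
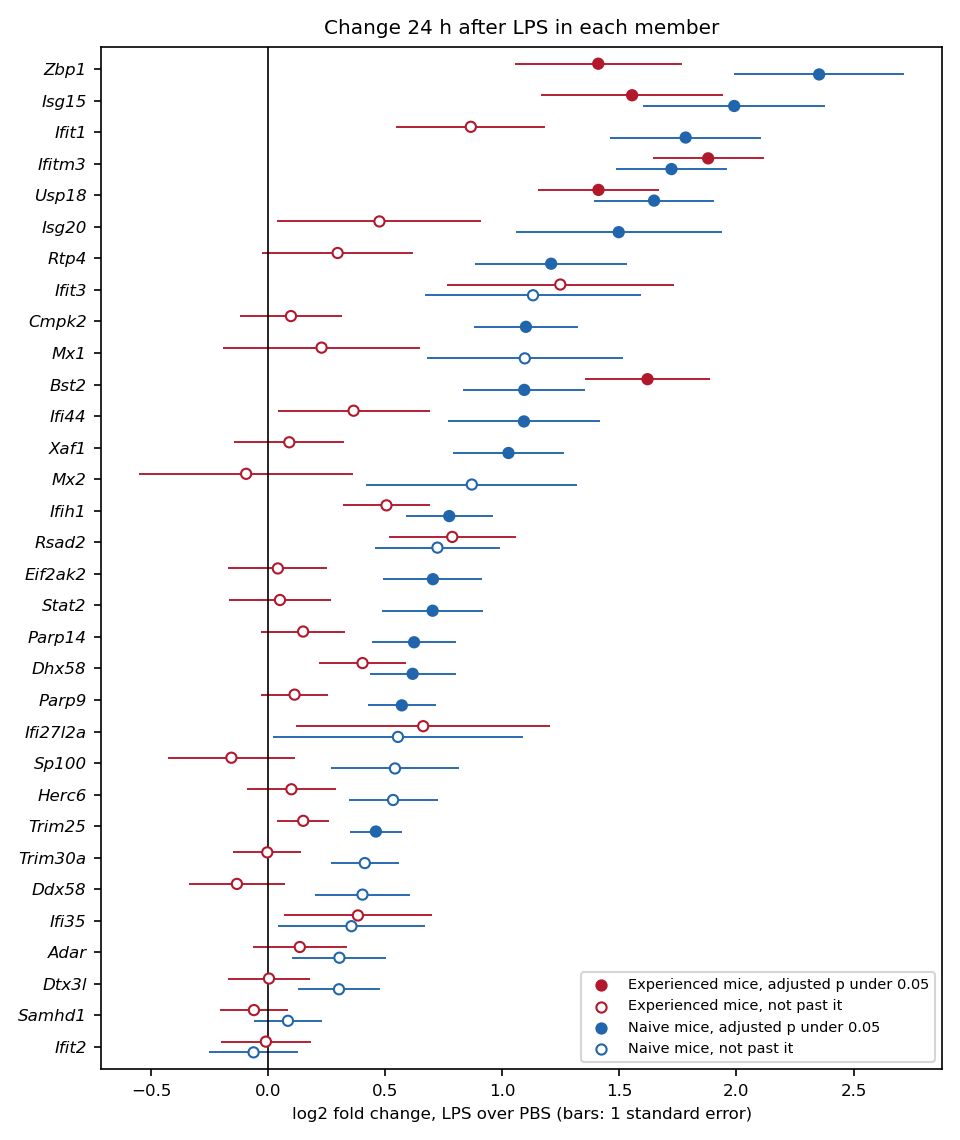
Log2 fold change of LPS over PBS, with bars of 1 SE, for the 32 genes in experienced and naive mice, sorted by the change in naive mice; filled points passed an adjusted p of 0.05. Filled points number 5 in experienced mice and 18 in naive mice, and the naive estimate is the larger for 25 of 32 genes.

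Experienced and naive LPS libraries were compared directly to ask whether HSPCs that had lived beside a leukaemia answered LPS differently. At an adjusted p under 0.05, 0 of the 32 genes differed, and 0% of all genes did; the lowest adjusted p of a member was 0.9999 by edgeR. DESeq2's Wald test and limma on log2 TPM also called 0 members. At an unadjusted p under 0.05, 9 members were lower in experienced mice and 0 higher, against 2.14% of all genes lower and 1.09% higher. The 9 were Ifit1, Stat2, Cmpk2, Ddx58, Xaf1, Zbp1, Trim30a, Parp14 and Parp9. The median log2 difference of the members was -0.41, a ratio of 0.752, against -0.02 over all genes, and 31 of 32 estimates were below 0. The members were measured in the same 8 LPS libraries, so they are not 32 separate observations. The 4 lowest p were those of Ifit1, with a log2 difference of -0.80 (SE 0.31) and unadjusted p = 0.0211, Zbp1 with -0.94 (SE 0.35) and 0.0148, Cmpk2 with -0.56 (SE 0.22) and 0.0214, and Parp9 with -0.36 (SE 0.14) and 0.0253.

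The size of this difference depended on single libraries. Without experienced LPS replicate 4, the library with 7.30% mitochondrial counts, the median was -0.55 and 20 members had an unadjusted p under 0.05. Without naive LPS replicate 1 the median was -0.30 and 0 members had one. Leaving out experienced LPS replicate 1, 2 or 3 gave 2, 3 and 2 members. The share of all genes at an unadjusted p under 0.05 was not computed for these fits. A change in count particular to the members is therefore not shown. At least 29 of 32 estimates were below 0 whichever library was left out. By limma on log2(TPM + 1) 30 estimates were below 0 and the median was -0.34.

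**Figure D4:**
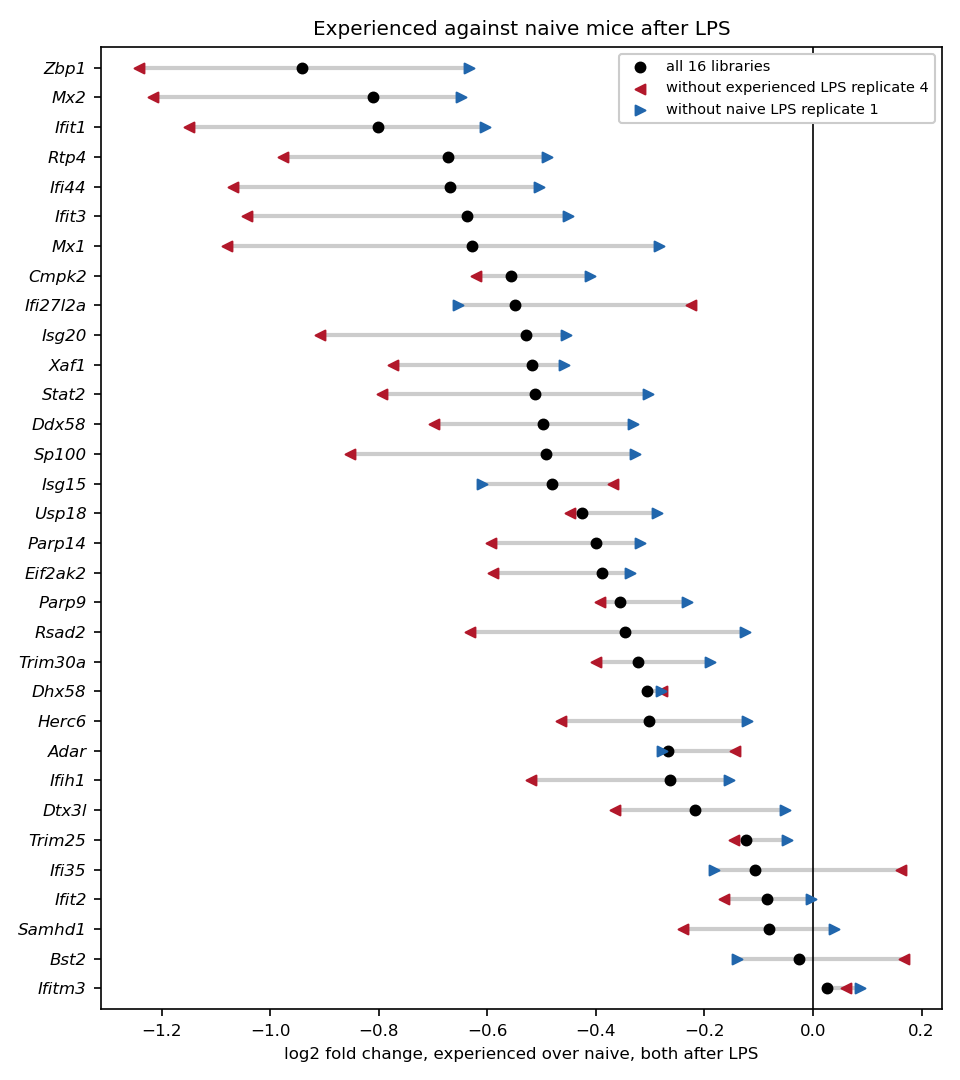
Log2 fold change of experienced over naive LPS libraries for each gene, from all 16 libraries, without experienced LPS replicate 4 and without naive LPS replicate 1. Nearly all points lie left of 0, and the 2 omissions pull most genes in opposite directions, with medians of -0.55 and -0.30.

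The difference between the LPS responses was also tested as an interaction, the log2 change of experienced mice minus that of naive mice. By edgeR 0 of 32 members passed an adjusted p under 0.05, as did 0% of all genes, and the lowest adjusted p was 0.884; DESeq2 and limma called 0 members too. At an unadjusted p under 0.05, 5 members were lower and 0 higher, against 3.06% of all genes lower and 1.52% higher. These were Stat2, Cmpk2, Xaf1, Parp9 and Eif2ak2. Cmpk2 had the lowest p by edgeR, with a ratio of responses of 0.499 (unadjusted p = 0.00491). Xaf1 followed with a ratio of 0.523 (unadjusted p = 0.0121). Bst2 had the highest estimate, a ratio of 1.44. The median was -0.44 against -0.03 over all genes, with 25 of 32 below 0. Leaving out 1 library gave 18 members without experienced LPS replicate 4, 10 without naive PBS replicate 4 and 9 without naive LPS replicate 3 or experienced PBS replicate 3. It gave 3 without experienced LPS replicate 2, and 2 without experienced LPS replicate 1 or 3, naive LPS replicate 1, experienced PBS replicate 2, or naive PBS replicate 1, 2 or 3. These member counts have no share of all genes beside them, because none was computed for these fits. A change in count particular to the members is therefore not shown. From 25 to 30 estimates were below 0 in these fits. The SE of an interaction had a median of 0.33 over the members.

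Experienced and naive mice were also compared at rest. Between experienced and naive PBS libraries 0 of 32 members passed an adjusted p under 0.05 by edgeR, and 0% of all genes did, with a lowest adjusted p of 0.988. At an unadjusted p under 0.05 there were 0 members higher and 0 lower, where 1.96% of all genes were higher and 1.01% lower. DESeq2 and limma also called 0 members. The median log2 difference was 0.07, with 21 of 32 above 0, and it ran from -0.03 to 0.16 when 1 library was left out. The lowest unadjusted p were 0.0504 for Bst2, at a log2 difference of -0.55 (SE 0.26), and 0.0573 for Cmpk2, at 0.45 (SE 0.22). A p above the threshold does not show that the levels were equal.

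A level of the whole list was made for each library as the mean of the 32 log2 CPM values, each centred on its gene's mean. It was 0.12 ± 0.22 in experienced LPS and 0.53 ± 0.25 in naive LPS libraries, against -0.33 ± 0.26 in experienced PBS and -0.31 ± 0.20 in naive PBS libraries (SD, n = 4 each). Experienced LPS replicate 4 had 0.41 and the other 3 of its group -0.03, 0.13 and -0.06. Naive LPS replicates 1 to 4 had 0.83, 0.23, 0.50 and 0.56. The level overlapped between the LPS groups through experienced replicate 4 and naive replicate 2, and naive PBS replicate 4, at -0.02, lay above experienced LPS replicates 1 and 3. Experienced LPS replicate 4 was the highest of its group for 25 of 32 members, naive LPS replicate 1 for 22 and naive PBS replicate 4 for 23. Experienced PBS replicate 3 was the lowest of its group for 19 and naive LPS replicate 2 for 17. These ranks were not counted over all genes, so a pattern particular to the members is not shown. The coefficient of variation of a member within a group had a median of 29.5% in experienced LPS, 25.3% in naive LPS, 18.7% in experienced PBS and 15.2% in naive PBS libraries.

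**Figure D5:**
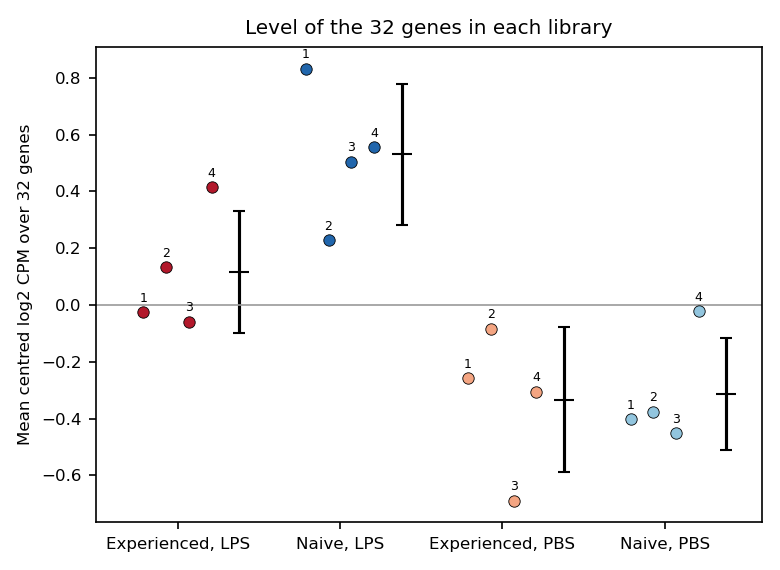
Mean centred log2 CPM over the 32 genes in each library, numbered by replicate, with the group mean and SD (n = 4) at the right of each group. Naive LPS averages 0.53 and experienced LPS 0.12, and replicate 4 of experienced LPS lies among the naive LPS libraries.

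Levels at rest were set against the changes. Across the 32 genes, Spearman's rho between the log2 mean TPM of naive PBS libraries and the log2 difference of experienced against naive LPS libraries was 0.60. Against the LPS change in experienced mice, which shares no library with that level, rho was -0.23. Against the LPS change in naive mice rho was -0.47, where the naive PBS libraries enter both measures. Genes are not independent replicates, and these values are descriptions. Members with an ISRE core in the window had a median log2 change of 0.79 in experienced and 0.77 in naive mice (11 genes), and those with an entry but no core 0.10 and 0.50 (12 genes). A core was found for 7 of the 12 genes with an entry that were called in naive mice and for 4 of the 11 that were not. The form with CT was found for 3 of the 12 and 3 of the 11. For the gamma-activated sequence these numbers were 4 and 4, and for the NF-kappaB letters 2 and 1.

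The genes upstream of the list were read from 35 interferon ligands, receptors and signalling genes, of which 33 were in the tables and 24 were tested. In experienced mice 2 of the 24 rose and 2 fell after LPS, where 4.52% of all genes rose and 8.26% fell. In naive mice 4 rose and 3 fell, where 9.81% of all genes rose and 11.9% fell, so the share that fell was near that of all genes in both. The median log2 change was -0.07 in experienced and 0.08 in naive mice, against -0.02 and 0.02 over all genes. The ligand transcripts were almost absent: Ifna1, Ifna4, Ifna5, Ifnl2 and Ifnl3 were listed at 0 in all libraries, and Ifna2, Ifnb1 and Ifng had 2, 2 and 7 counts over all 16. Irf7, the factor that amplifies interferon responses, had the highest log2 change of these genes in naive mice. Irf7 had 71.5, 69.3, 59.3 and 82.6 CPM in the experienced LPS libraries and 141, 54, 124 and 118 CPM in the naive LPS libraries, against 19.7, 29.4, 11.1 and 27.4 CPM after PBS in experienced mice and 17, 23.4, 17.4 and 29.5 CPM after PBS in naive mice. The LPS and PBS libraries did not overlap, and naive LPS replicate 2 was again the lowest of its group. On the log2 scale it changed by 1.69 (SE 0.30, adjusted p = 0.00184) in experienced mice and 2.33 (SE 0.31, adjusted p = 0.000113) in naive mice. Ifnar1, the receptor chain, fell in both, with log2 changes of -0.61 (SE 0.13, adjusted p = 0.00507) and -0.63 (SE 0.13, adjusted p = 0.00261) in experienced and naive mice. So did the LPS adaptor Ticam2, with -0.90 (SE 0.18, adjusted p = 0.0045) and -1.20 (SE 0.18, adjusted p = 0.000345). Cd14, the LPS co-receptor, had 3.91, 3.96, 5.14 and 0 CPM in experienced LPS libraries, against 0.837, 0.573, 0.333 and 0.186 CPM in experienced PBS libraries. Its log2 change there was 2.71 (SE 0.73, adjusted p = 0.0226) although LPS replicate 4 was listed at 0. Among the others, Ifngr1 and Irf9 rose in naive mice and Tmem173 (STING) fell.

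A further 57 interferon-induced genes that the list leaves out were counted, 54 of them tested. In experienced mice 10 of the 54 rose and 2 fell, where 4.52% of all genes rose and 8.26% fell, and the median log2 change was 0.19 against -0.02 over all genes. In naive mice 17 rose and 1 fell, where 9.81% of all genes rose and 11.9% fell, and the median was 0.42 against 0.02. Between experienced and naive LPS libraries 0 passed an adjusted p under 0.05 by edgeR, 6 were lower and 0 higher at an unadjusted p under 0.05, where 2.14% of all genes were lower and 1.09% higher, and the median was -0.19 against -0.02 over all genes. The chemokine gene Cxcl10 rose in both kinds of mice, by 3.29 (SE 0.40, adjusted p = 9.16e-05) in experienced and 3.39 (SE 0.39, adjusted p = 3.48e-05) in naive mice. Ccl5, a chemokine as well, had 4.51 (SE 0.58, adjusted p = 0.000135) and 3.96 (SE 0.55, adjusted p = 0.00016). Ccl5 had 42.1, 31.6, 31.8 and 14.3 CPM in the experienced LPS libraries and 34.6, 6.2, 33.9 and 44.8 CPM in the naive LPS libraries, against 1.26, 2.71, 0.60 and 0.465 CPM after PBS in experienced mice and 2.03, 1.97, 1.97 and 1.68 CPM after PBS in naive mice. In naive LPS replicate 2 it was far below the rest of its group, at 6.20 CPM. Ifitm1, a relative of Ifitm3, had 2.26 (SE 0.35, adjusted p = 0.000665) in experienced and 2.07 (SE 0.35, adjusted p = 0.000812) in naive mice. Ifi204, a DNA sensor of mice, had 2.49 (SE 0.44, adjusted p = 0.00153) and 3.02 (SE 0.44, adjusted p = 0.000225), and Ms4a4c had 2.24 (SE 0.33, adjusted p = 0.000489) and 1.56 (SE 0.32, adjusted p = 0.00288). The summed TPM of erythroid markers was 64.6 to 143 in experienced LPS and 89.4 to 205 in naive LPS libraries, against 22.1 to 213 in experienced PBS and 9.29 to 41.2 in naive PBS libraries, and its part in any of these changes was not tested.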

How the data were processed

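Bulk RNA-seq of sorted mouse HSPCs was deposited as 1 RSEM gene table per biological replicate, 16 in all, with expected counts and TPM. Per the submitters' processing notes, Trim Galore 0.6.7, STAR 2.7.10a, RSEM 1.3.1 and the mouse build GRCm38 were used; which annotation release and strand setting were used is not stated. The expected counts in the deposited tables are RSEM's estimates of reads per gene, not normalized, in which shared reads are split between genes. The TPM values deposited by the authors are scaled for transcript length and sequencing depth. The labels list a pair of technical replicates per library with 1 table for both, and how they were merged is not stated. Symbols came from GENCODE M21, which matched 45143 of 45706 IDs.

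Expected counts were rounded, genes were kept by edgeR's filterByExpr (15186, holding 99.9% of counts), scaled by TMM and fitted with edgeR 4.0.16 in R 4.3.3 (glmQLFit and glmQLFTest, 4 groups of 4 libraries, no covariate, common biological coefficient of variation 0.306, 12 residual df). CPM are TMM-scaled. A gene was called at a Benjamini-Hochberg adjusted p under 0.05 over all genes tested. The code was tested on simulated data. The members and the other gene lists were chosen with earlier results of these data known. Values in every library are given for the 6 members of lowest adjusted p in each LPS contrast, the 4 of lowest p in each other contrast, and the 3 highest and 3 lowest in mean TPM; of the other lists, the 4 of lowest adjusted p in each LPS contrast were named, and further genes where a count or a background statement needed them. Some items are not reported here. Alternatives were other scalings, DESeq2 1.42.0, limma 3.58.1 on log2 TPM, no filter, a replicate block, and leaving out libraries. Values of 4 were checked with Dixon's ratio (0.829). Reads of Ifit, Mx and Ifitm relatives, and of genes that overlap others (Ifi35, Usp18, Dhx58, Rtp4, Parp14, Parp9, Dtx3l, Eif2ak2, Herc6, Sp100, Adar, Trim30a), could be split or shared, so their values are uncertain.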

Additional observations from a re-analysis of the deposited data

Results flagged for a closer look

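Dixon's ratio was applied to 128 sets of 4 replicate values (32 genes in 4 groups, in CPM). A library was set apart from its group in 22 of them (17.2%). Chance gives about 1 in 20 for independent sets, but these sets come from the same 16 libraries. The share over all genes was not computed, so an excess particular to these genes is not shown. Over all tested genes, the mean correlation with its own group was 0.915 for experienced LPS replicate 4, against 0.958 to 0.961 for replicates 1 to 3. Experienced LPS replicate 4 accounted for 9 of the 22 sets. It was the highest of its group for Dtx3l at 202 CPM, Ifih1 at 108 CPM, Isg20 at 47.2 CPM, Mx2 at 8.52 CPM, Samhd1 at 179 CPM, Sp100 at 206 CPM and Zbp1 at 38.1 CPM. The same library was the lowest for Adar at 117.0 CPM, against 170.0 to 174 CPM in the others, and for Ifi35 at 12.2 CPM, against 38.9 to 40.3 CPM. It was also the shallowest library, with 7.30% mitochondrial counts, and their part in these values was not tested.

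Naive PBS replicate 4 stood above the rest of its group for Dtx3l at 175 CPM, Ifi44 at 31.1 CPM, Ifit3 at 3.17 CPM, Parp9 at 72.1 CPM, Rtp4 at 47.4 CPM and Trim30a at 87.1 CPM. Experienced PBS replicate 4 stood high for Cmpk2 at 45.5 CPM and Isg20 at 47.4 CPM and low for Dtx3l at 133 CPM. Naive LPS replicate 1 stood high for Herc6 at 54.8 CPM and Ifit1 at 39.2 CPM. Naive LPS replicate 2 stood low for Dhx58 at 33.96 CPM and Ifitm3 at 317 CPM.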

How the results depend on the processing

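The number of members higher after LPS was 5 in experienced and 18 in naive mice. In experienced mice it was 8 by DESeq2 and 3 by limma on log2(TPM + 1) without a filter, and 5 to 6 with 1 library left out. In naive mice it was 10 by limma on log2(TPM + 1), 10 with a pseudocount of 0.1 and 7 without a filter, and 11 to 22 with 1 library left out (22 without experienced LPS replicate 4). DESeq2 gave 22 there, and leaving out the 2 libraries of highest mitochondrial share gave 24 (6 in experienced mice). The count over all genes moved as well. In naive mice 374 of 15186 were higher by limma on log2(TPM + 1) and 260 of 24777 without a filter. It was 1924 of 15186 by DESeq2 and 2426 of 15484 without the 2 libraries, against 1490 of 15186 by edgeR. In experienced mice DESeq2 gave 1178 and limma without a filter 128, against 686 by edgeR. The cause was not tested. On the TPM scale the median of all genes moved to -0.13 in experienced and -0.09 in naive mice, and the members' median was 0.06 and 0.52. There 15.7% of the calls over all genes in experienced mice and 19.9% in naive mice were upward, against 35.4% and 45.2% in the edgeR fit; with upper-quartile scaling the naive share was 35.0%, and without the 2 libraries of highest mitochondrial share the experienced share was 46.4%. No direction of a called value turned under any alternative run. Ifitm3, Bst2 and Usp18 were called in both kinds of mice under every setting run. Between experienced and naive mice, 0 members were called under every setting run.

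With a replicate block, the count was 5 in experienced and 21 in naive mice. Deviations of same-numbered libraries correlated above 0.1 in 4 of 24 pairs, and 4 of 16 libraries correlated best with their own number. Of those 4 pairs, 3 were between experienced LPS and experienced PBS libraries (0.18, 0.22 and 0.32 for replicates 1, 2 and 4, and -0.12 for replicate 3). In no comparison did every pair exceed 0.1. The labels number biological replicates without saying whether equal numbers in different groups belong together. The numbers were therefore not taken to pair the samples.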
